A study of Mus musculus with 96 samples.

Results

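Single mouse embryonic stem (ES) cells of the E14 line, kept in serum/LIF medium (LIF is leukaemia inhibitory factor), were compared at the ends of their range of Nanog messenger RNA: the 14 cells with the highest Nanog level, called Nanog-high, and the 14 with the lowest, called Nanog-low. The members were chosen from the measured counts and from no label: the 61 serum/LIF cells with counts were ranked by Nanog CPM, the count scaled by the cell's total over mouse genes, with ties broken by well name. Both groups come from the same line and medium. The labels give E14 as wild-type with a C57BL/6 background, and no sorting, treatment or reporter separates the groups. The series lists 76 serum/LIF wells, 16 in 2i medium and 4 empty ones, and RNA was parted from DNA of the same cell by the G&T-seq protocol. The 33 cells between the groups served as separate cells for some of the values below. No label tells of separate cultures, and p-values here measure the spread between single cells only.

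NANOG is a homeodomain transcription factor of the pluripotency network. In serum/LIF its level fluctuates from cell to cell, and cells low in NANOG can return to the high state or move towards differentiation. It works with OCT4 (encoded by Pou5f1), SOX2, ESRRB and the KLF factors, many of whose genes it binds, while 2i medium, which blocks the ERK and GSK3 kinases, is known to make its level more even. Naive pluripotency genes mark cells like those of the early epiblast, and formative or primed genes mark later epiblast states.

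The Nanog gene (ENSMUSG00000012396) lies on the plus strand at chr6:122707489-122714633 in GRCm38. Its promoter is shown because Nanog defines both groups and because the genes of the factors known to bind it, Pou5f1 and Sox2, were measured in the same cells. The sequence is from RefSeq on GRCm38.p6, chr6:122707239-122707538, plus strand, from 250 bases before to 50 bases after the gene's start. Capitals mark the OCT4-SOX2 composite element, which begins 75 bases upstream of the start.

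Nanog promoter: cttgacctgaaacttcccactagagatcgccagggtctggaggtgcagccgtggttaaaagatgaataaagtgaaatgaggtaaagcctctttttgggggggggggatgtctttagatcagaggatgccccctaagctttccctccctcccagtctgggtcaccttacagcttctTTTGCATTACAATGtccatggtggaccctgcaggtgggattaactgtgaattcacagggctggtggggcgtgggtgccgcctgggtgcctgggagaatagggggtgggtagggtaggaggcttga

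The letters searched for were TTTGCATNACAATG on both strands, a spelling of the element as Nanog carries it. They occurred in 2 of 32851 promoters of 300 bases (0.00609%), both of them Nanog entries. The OCT4 part alone, TTTGCAT, occurred in 4.63% of these promoters, and the SOX2 part alone, ACAATG, in 12.6%. Both parts lie inside the longer spelling, and a match of letters is a description of the window only.

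Nanog ranged from 299.3 to 1298 CPM in the 14 Nanog-high cells, with a median of 413.9 CPM, and was 0 in each of the 14 Nanog-low cells. The raw Nanog count was 1116 to 5252 in Nanog-high cells and 0 in Nanog-low cells. Every cell of the 61 with no Nanog count is in the Nanog-low group, and no other cell is. A count of 0 allows up to 3 counts, which in the Nanog-low cells corresponds to 0.455 to 0.974 CPM, for counting error only. The cell just inside the Nanog-high group had 299.3 CPM and the cell just outside it 281.3 CPM. The cell just outside the Nanog-low group had 4 counts, or 0.930 CPM, and the next had 31 counts. The upper boundary thus cuts through a continuous range of levels, while the lower one follows the presence of any count. These values chose the groups and carry no test.

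**Figure D1:**
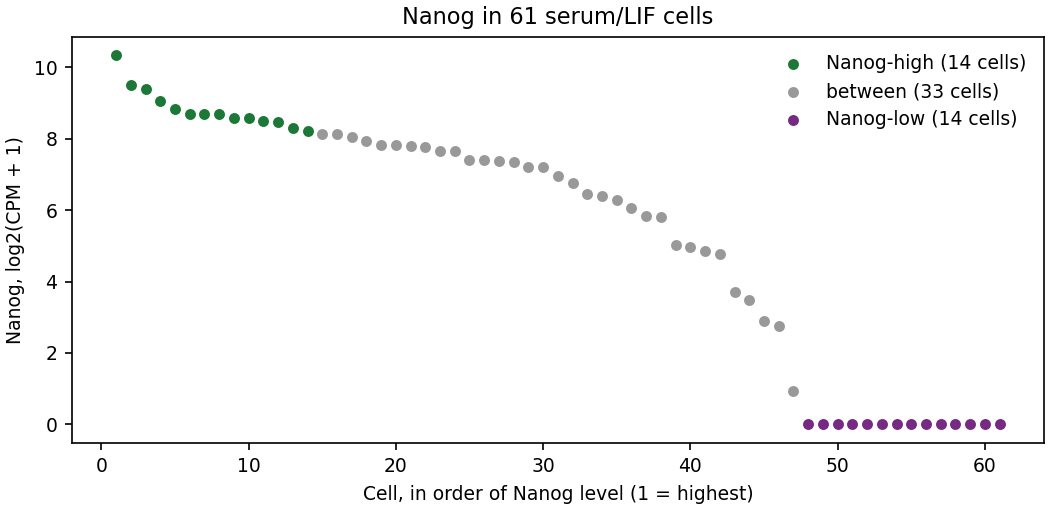
Nanog level of each of the 61 serum/LIF cells (points), as log2(CPM + 1) on the vertical axis, in order of rank on the horizontal axis. The 14 Nanog-high cells, at 299.3 to 1298 CPM, run without a break into the 33 cells between, and the 14 Nanog-low cells lie at 0.

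Both groups carried messages of the ES cell markers Pou5f1, Lin28a and Sall4. The other ES cell markers chosen, Sox2, Dppa5a and Zfp42, had lower medians in Nanog-low cells. Sox2 and Zfp42 had no count in some cells of each group, and their values are given below. Pou5f1, which encodes OCT4, ranged from 439 to 2366 CPM in Nanog-high cells (median 1257) and from 74.1 to 1958 CPM in Nanog-low cells (median 1237). It had a count in 14 of 14 Nanog-high and 14 of 14 Nanog-low cells, and its fold change did not pass the test (log2 0.24 ± 0.36 SE, adjusted p = 1.00, edgeR's quasi-likelihood test). Lin28a, an RNA-binding protein of pluripotent cells, was also counted in all 28 cells, with medians of 325 CPM in Nanog-high and 219.9 CPM in Nanog-low cells. Sall4, a zinc-finger factor of the same network, had medians of 282 and 130.4 CPM in Nanog-high and Nanog-low cells, with an adjusted p of 0.568. No Nanog-low cell lacked a count for Pou5f1, Lin28a or Sall4.

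The mean number of genes detected was lower in Nanog-high cells, at a p that was not adjusted over the cell properties compared. Total counts per cell were 3134594 to 5946344 in Nanog-high and 3080739 to 6597540 in Nanog-low cells, and the difference of their means did not pass (permutation p = 0.136, two-sided). Genes detected averaged 7982 ± 633 in Nanog-high and 8675 ± 964 in Nanog-low cells (SD, n = 14 each, permutation p = 0.0321), and the share of genes detected was a covariate in the fits unless stated. The mitochondrial share of counts was 2.28% ± 0.74 in Nanog-high and 1.85% ± 0.86 in Nanog-low cells (SD, n = 14 each, permutation p = 0.176). Counts from chromosome 14 made up 2.80% ± 0.55 in Nanog-high and 3.18% ± 0.39 in Nanog-low cells (SD, n = 14 each, permutation p = 0.0442, adjusted over the chromosomes 0.248), and 3 Nanog-high cells and 1 Nanog-low cell lay under 0.75 of the median share. Chromosome 17 gave 5.02% in Nanog-high and 4.69% in Nanog-low cells (permutation p = 0.0055, adjusted over the chromosomes 0.115). For chromosome 9 the shares were 6.52% and 6.09% (permutation p = 0.0140, adjusted 0.147), and no chromosome passed after adjustment. Chromosome 6, without Nanog itself, gave 4.61% and 4.63% of counts in Nanog-high and Nanog-low cells (permutation p = 0.849). The part of detection, mitochondrial share and chromosome shares in the results that follow was not tested beyond the covariate and the cells left out below.

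**Figure D2:**
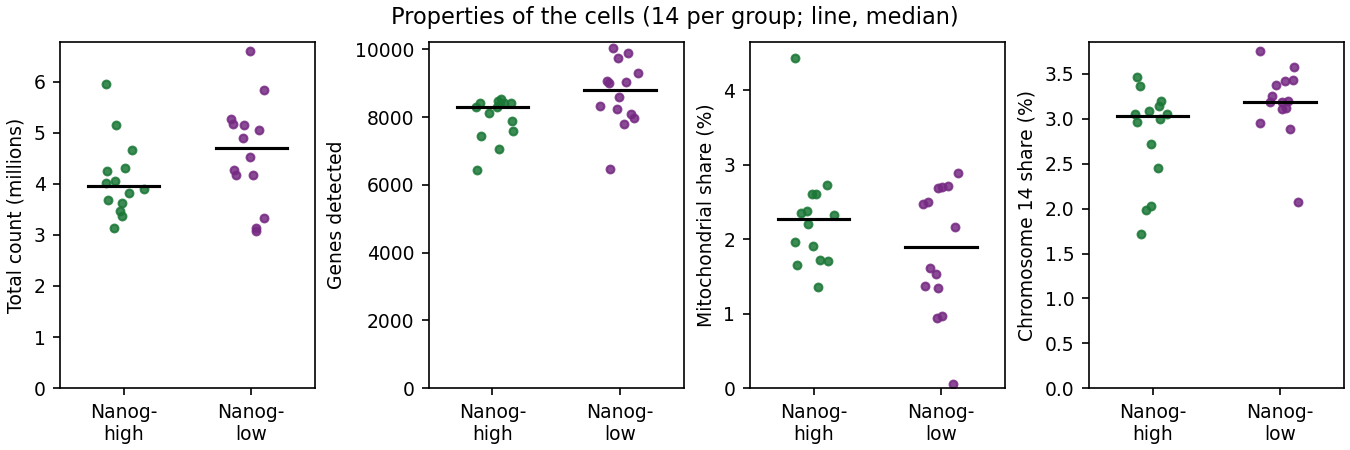
Total count, genes detected, mitochondrial share of counts and chromosome 14 share of counts (vertical axes) in each Nanog-high and Nanog-low cell, 14 per group, with the line at the median. Genes detected averaged 7982 in Nanog-high and 8675 in Nanog-low cells, and the groups overlap in all 4 properties.

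Across 10867 genes, edgeR's quasi-likelihood test called 48 at a Benjamini-Hochberg adjusted p under 0.05, or 0.442% of those tested: 28 higher in Nanog-high cells (0.258%) and 20 lower (0.184%), with 726 at an unadjusted p under 0.05. Without the detection covariate 32 genes were called, 20 of them among the 48, and the split turned, with 9 of the 32 higher. Of the 48, 45 had a count in fewer than 14 of the 28 cells and 29 had a median of 0 CPM in both groups, so most calls rest on a few cells. Limma-trend on log2 CPM called 5 of the 10867 (0.046%), 1 higher (0.0092%) and 4 lower (0.0368%), with 874 at an unadjusted p under 0.05. On simulated counts, which also held changed genes, edgeR called unchanged genes more often than its threshold allows. It called 53 of 10667 unchanged genes, a number near the 48 calls in the data. With only genes counted in at least 14 cells adjusted together it called 0 unchanged genes, and limma-trend called 0. When only the 7652 genes with a count in at least 14 of the 28 cells were adjusted together, edgeR called 0 (0.0%), with 232 at an unadjusted p under 0.05 and a smallest adjusted p of 0.0749.

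Podxl, Gcnt1 and Smim3 passed both tests, and all 3 were lower in Nanog-high cells. Podxl (ENSMUSG00000025608, chr6:31519488-31563981, minus strand) encodes podocalyxin, a sialomucin of the apical cell surface. It had a count in 1 of 14 Nanog-high cells, at 0.429 CPM, and in 11 of 14 Nanog-low cells, with a median over the 14 of 38.5 CPM and a highest value of 132 CPM. The groups overlapped only through the 3 Nanog-low cells with no count. The log2 fold change was -9.64 ± 1.41 SE (adjusted p = 0.0020, edgeR), and limma-trend gave -5.60 ± 1.04 (adjusted p = 0.0292).

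Gcnt1 (ENSMUSG00000038843, chr19:17326141-17372844, minus strand) encodes an enzyme that branches the O-linked sugar chains of mucin-type glycoproteins. It had no count in any of the 14 Nanog-high cells and a count in 10 of 14 Nanog-low cells, with a highest value of 41.5 CPM. Against a floor of 3 counts over the Nanog-high group, its pooled level was at least 290-fold lower in Nanog-high cells, for counting error only. The spread between cells is not in this bound, and counts are reads, not independent molecules. Tests of its fitted difference gave an adjusted p of 0.0220 in edgeR and 0.0292 in limma-trend. Smim3 (ENSMUSG00000038059), which encodes a small membrane protein, had a count in 2 of 14 Nanog-high cells, the highest at 4.45 CPM, and in 12 of 14 Nanog-low cells, with a median of 71.2 and a highest value of 293 CPM. Its log2 fold change was -7.39 ± 1.38 SE (adjusted p = 0.0179, edgeR; 0.0158, limma-trend). None of the 14 Nanog-high cells reached the Nanog-low median of Podxl, Gcnt1 or Smim3. After each cell was thinned to 3080739 counts, the cells with a count numbered 1 and 11 for Podxl, 0 and 10 for Gcnt1, and 2 and 12 for Smim3, in Nanog-high and Nanog-low cells.

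The calls of Podxl and Smim3 changed with the number of cells taken at each end. With 20 cells per end the log2 fold change was -3.48 for Podxl (adjusted p = 0.808) and -3.25 for Smim3 (adjusted p = 0.627), while that of Gcnt1 was -9.46 and still passed (adjusted p = 0.0020, edgeR). With 10 per end the fold changes were -9.29, -9.09 and -8.95 for Podxl, Gcnt1 and Smim3, with adjusted p of 0.136, 0.153 and 0.0987. With rows A to D against E to H of the plate as a covariate, Podxl and Gcnt1 passed and Smim3 had an adjusted p of 0.0742. Without the 4 cells low in chromosome 14 counts edgeR called 2 genes; Podxl remained, while Gcnt1 had an adjusted p of 0.0900 and Smim3 0.0776. With 1 cell left out at a time, edgeR called all 3 in 28 of 28 fits, and limma-trend called Podxl and Gcnt1 in 19 and Smim3 in 27.

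**Figure D3:**
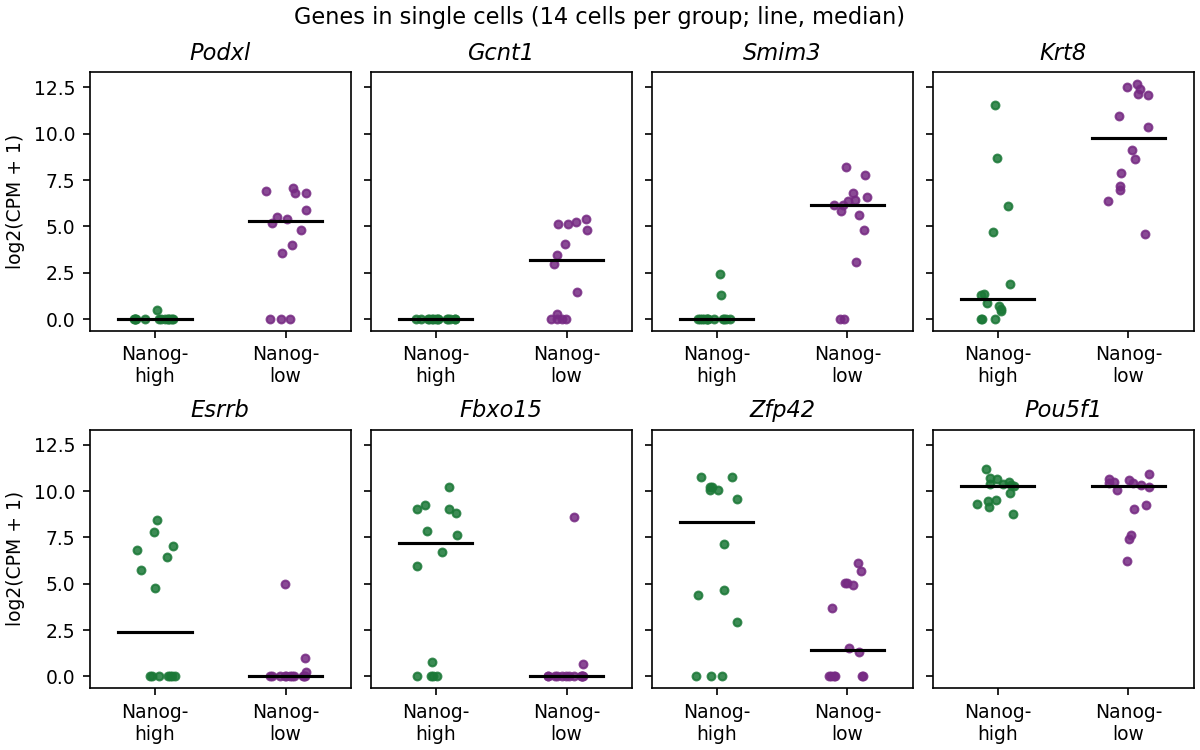
Level of 8 genes as log2(CPM + 1) on the vertical axis in each of 14 Nanog-high and 14 Nanog-low cells (points), with the line at the median. Podxl, Gcnt1 and Smim3 are at or near 0 in the Nanog-high cells, Fbxo15 and Esrrb have counts in more Nanog-high than Nanog-low cells, and Pou5f1 lies in the same range in both groups.

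Of the 16 naive pluripotency genes listed, 11 had enough counts to be tested; edgeR called 2 higher in Nanog-high cells, Esrrb and Fbxo15, and 0 lower, against 0.442% of all genes. The other 9 tested did not pass, and limma-trend called 0; at an unadjusted p under 0.05 there were 6 in edgeR and 3 in limma-trend. The listed genes summed to 53.4 to 3814 CPM in Nanog-high cells (median 1600) and to 84.4 to 981 CPM in Nanog-low cells (median 174). The median difference in mean log2(CPM + 1) over the 11 was 2.01, beside -0.13 over all tested genes. Of the 11 differences 10 were above 0, beside 4747 of 10867 over all tested genes. Only genes with enough counts are in these medians.

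Esrrb (ENSMUSG00000021255, chr12:86361117-86521628, plus strand) encodes an orphan nuclear receptor that sustains self-renewal. It had a count in 7 of 14 Nanog-high cells, with a median of 13.3 and a highest value of 345 CPM, and in 3 of 14 Nanog-low cells, with a median of 0 and a highest value of 30.7 CPM. The other 7 Nanog-high cells had no count, so the groups overlapped. The log2 fold change was 7.77 ± 1.64 SE (adjusted p = 0.0268, edgeR), with 0.664 in limma-trend. In edgeR the fold change was 4.85 without the detection covariate (adjusted p = 0.518) and 5.06 with the plate covariate (adjusted p = 0.380), and the adjusted p was 0.232 in a fit of all 61 cells, 0.166 with 10 cells per end, 0.119 without the 4 cells low in chromosome 14 counts and 0.0560 without the cells of extreme mitochondrial share. Without the Nanog-high cell in well D05 or the Nanog-low cell in well A02 its adjusted p was 0.0572 or 0.0501. Fbxo15, an F-box gene known as a reporter of pluripotent mouse cells, had a count in 10 of 14 Nanog-high cells, with a median of 151 and a highest value of 1200 CPM, and in 2 of 14 Nanog-low cells, with a median of 0 and a highest value of 390 CPM. Its log2 fold change was 9.23 ± 1.67 SE (adjusted p = 0.0157, edgeR), with 0.427 in limma-trend. In edgeR the fold change was 3.27 without the detection covariate (adjusted p = 1.00), and the adjusted p was 0.259 in a fit of all 61 cells and 0.138 with 10 cells per end.

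Zfp42, the gene of the ES cell marker REX1, had medians of 443 CPM in Nanog-high and 1.71 CPM in Nanog-low cells and highest values of 1748 and 68.1 CPM. It had a count in 11 of 14 Nanog-high and 8 of 14 Nanog-low cells, and its adjusted p was 0.199 in edgeR. The other 6 Nanog-low cells and the other 3 Nanog-high cells had no count, so both groups reach down to 0. Nr0b1, which encodes the nuclear receptor DAX1, was counted in 8 Nanog-high and 2 Nanog-low cells (adjusted p = 0.0752), and Klf2, a KLF factor of the naive network, in 9 and 2 (adjusted p = 1.00). Klf4 had medians of 4.25 CPM in Nanog-high and 0.194 CPM in Nanog-low cells, and Tfcp2l1, a naive factor downstream of LIF, medians of 61.7 and 23.2 CPM. Klf5 was counted in all 28 cells, with medians of 61.3 CPM in Nanog-high and 95.9 CPM in Nanog-low cells. Tbx3 and Prdm14, counted in 4 and 1 Nanog-high cells and in 4 and 0 Nanog-low cells, were under the filter on low counts.

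Of 17 general pluripotency genes 16 were tested and 0 passed in either direction by edgeR or limma-trend (1 and 3 at an unadjusted p under 0.05). Their median difference was 0.89 in mean log2(CPM + 1), and 15 of 16 differences were above 0, beside 4747 of 10867 over all tested genes. Sox2, the partner of OCT4 at the Nanog element printed above, had medians of 66.3 CPM in Nanog-high and 18.2 CPM in Nanog-low cells, with counts in 13 and 9 cells (log2 fold change 1.42 ± 1.16 SE, adjusted p = 1.00, edgeR). Dppa5a, an RNA-binding protein gene of pluripotent cells, had medians of 5322 CPM in Nanog-high and 86.4 CPM in Nanog-low cells. Its ranges, 0.748 to 9374 and 0.387 to 8637 CPM, overlapped almost whole, and its adjusted p was 1.00 in edgeR and 0.486 in limma-trend.

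Among 20 genes of proteins known to associate with NANOG, edgeR called 1 higher in Nanog-high cells, beside 0.258% of all genes, and 0 lower, and limma-trend called 0 (4 by each at an unadjusted p under 0.05). The 1 call is Esrrb, already counted among the naive genes. TET1 and TET2 oxidise methylated cytosine and bind NANOG. Tet1 ranged from 26.2 to 1551 CPM in Nanog-high cells (median 421) and from 0 to 341 CPM in Nanog-low cells (median 121), with an adjusted p of 0.926 in edgeR and 0.427 in limma-trend. Tet2 was counted in 10 of 14 Nanog-high and 5 of 14 Nanog-low cells (adjusted p = 0.592 and 0.427 by the same tools). Genes of the NuRD complex, Hdac1, Chd4, Mta2 and Mbd3, had medians of 154, 273, 47.8 and 94.4 CPM in Nanog-high cells and 213, 426, 112 and 84.5 CPM in Nanog-low cells, and none passed.

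Of 18 formative and primed genes, all tested, edgeR called 0 and limma-trend 1, Krt8, lower in Nanog-high cells (4 and 5 at an unadjusted p under 0.05). Krt8 (ENSMUSG00000049382, chr15:101996698-102004482, minus strand) encodes a keratin of simple epithelia, which pairs with the KRT18 protein in filaments. It ranged from 0 to 3041 CPM in Nanog-high cells (median 1.16) and from 23.5 to 6590 CPM in Nanog-low cells (median 938). Only 1 of 14 Nanog-high cells exceeded the Nanog-low median, although all 14 Nanog-low cells had a count and 11 Nanog-high cells did. Limma-trend gave a log2 difference of -7.35 ± 1.39 SE (adjusted p = 0.0292), while edgeR gave -3.56 ± 1.55 (adjusted p = 0.588).

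Krt18 had medians of 0 CPM in Nanog-high and 510.4 CPM in Nanog-low cells, with counts in 6 and 12 cells, and did not pass (adjusted p = 0.652 in edgeR and 0.349 in limma-trend). Krt19, a keratin of the same kind that is in no list and was looked at after the values were seen, was counted in 1 Nanog-high and 10 Nanog-low cells, with adjusted p of 0.0819 and 0.172 by the same tools. Other members of the list went both ways: Cldn6, a tight-junction gene, had medians of 0.420 CPM in Nanog-high and 233 CPM in Nanog-low cells, whereas Tcf15 was counted in 8 and 3 cells. Fgf5 and Otx2, which mark the epiblast after implantation, were counted in 3 and 5 Nanog-high cells and in 1 and 4 Nanog-low cells. The median over the list was 0.75 in edgeR's log2 fold change and -0.27 in the difference of mean log2(CPM + 1), so the sign of this list depends on the measure.

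**Figure D4:**
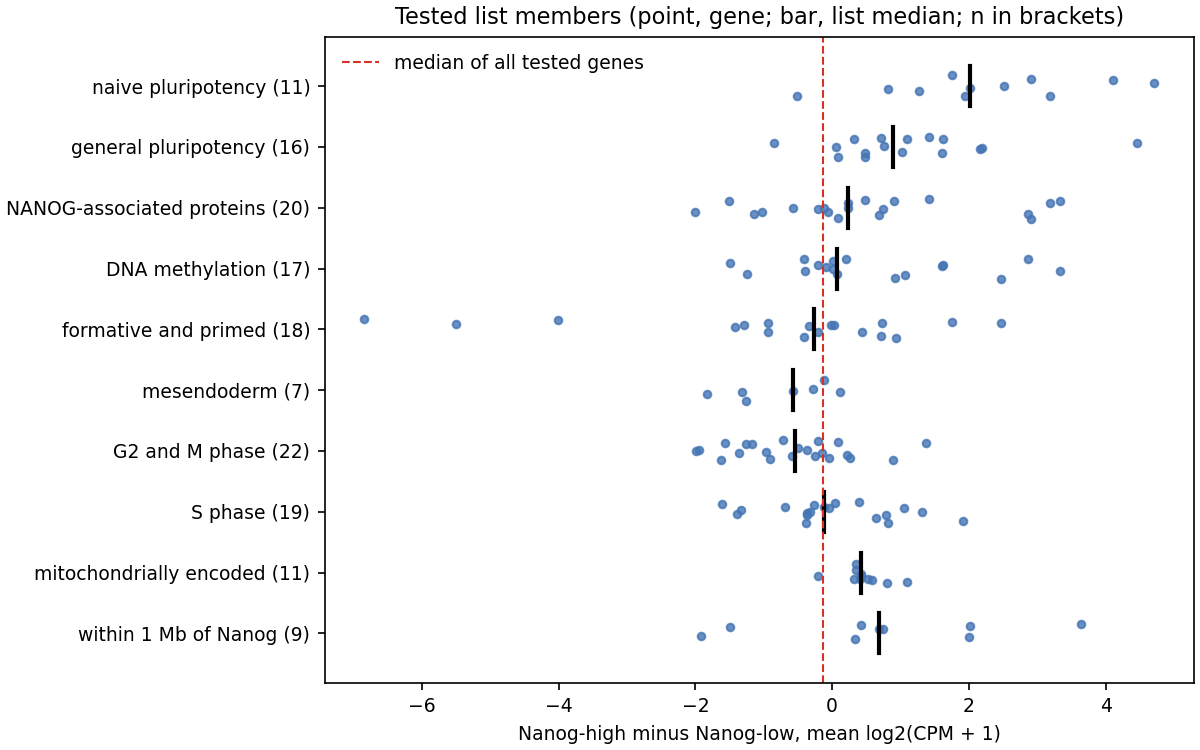
Difference between Nanog-high and Nanog-low cells in mean log2(CPM + 1) on the horizontal axis for each tested member (points) of 10 lists, with the list's median (bar) and the median of all tested genes (dashed line, -0.13). Naive genes lie mostly to the right, with a median of 2.01, and the formative list has 3 members far to the left, Krt8, Krt18 and Cldn6.

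Pus7 (ENSMUSG00000057541, chr5:23740648-23783711, minus strand), which encodes a pseudouridine synthase, was the 1 gene that limma-trend called higher. It ranged from 6.73 to 314 CPM in Nanog-high cells (median 136) and from 0 to 281 CPM in Nanog-low cells (median 56.4), and 12 of 14 Nanog-high cells exceeded the Nanog-low median. The limma-trend log2 difference was 4.70 ± 0.91 SE (adjusted p = 0.0349), and edgeR gave 2.60 ± 1.24 (adjusted p = 0.715). Left out 1 at a time, the cells kept the limma-trend call of Pus7 in 12 of 28 fits and that of Krt8 in 18.

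Among genes with a count in at least 14 of the 28 cells, edgeR called Surf6 and Rnf13 higher and Smim3 lower. The p-values of these calls were adjusted over all 10867 tested genes. With only the 7652 genes of that set adjusted together, edgeR called 0, with a smallest adjusted p of 0.0749. Surf6, a nucleolar protein gene, had medians of 15.3 CPM in Nanog-high and 0 CPM in Nanog-low cells (log2 fold change 6.37 ± 1.43 SE, adjusted p = 0.0419, edgeR; 0.107, limma-trend). Rnf13, a ubiquitin ligase gene, had medians of 32.9 CPM in Nanog-high and 0.160 CPM in Nanog-low cells (log2 fold change 7.603 ± 1.77 SE, adjusted p = 0.0490 and 0.256). Both calls ended without the detection covariate, where the log2 fold changes were 1.69 for Surf6 and 1.51 for Rnf13, and with 20 cells per end, at 1.14 and 1.85 (adjusted p = 1.00 in each). They were also lost in a fit of all 61 cells (adjusted p = 0.789 for Surf6 and 0.732 for Rnf13), with the plate covariate (0.0671 and 0.0888), with the stricter filter (0.139 and 0.138), and in 13 and 19 of the 28 fits with 1 cell left out. Over all 43 alternatives, Surf6 was called in 20 and Rnf13 in 14.

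The next genes by p in that set did not pass. Hsp90ab1, a chaperone gene counted in every cell, was closest among abundant messages, at 4084 to 8332 CPM in Nanog-high cells (median 6086) and 3023 to 7146 CPM in Nanog-low cells (median 4881), with a log2 fold change of 0.42 ± 0.11 SE (adjusted p = 0.0819, edgeR). Pdcd4, a translation inhibitor gene, had medians of 43.6 CPM in Nanog-high and 8.35 CPM in Nanog-low cells (adjusted p = 0.0680), and Eef1g and Rpl15, of the translation machinery, had adjusted p of 0.151 and 0.175. Lgals1, the galectin-1 gene, had medians of 58.7 CPM in Nanog-high and 339 CPM in Nanog-low cells (adjusted p = 0.119). Vapa, Kat6a, Tmem68 and Atxn10, with negative fold changes, had adjusted p of 0.203, 0.214, 0.242 and 0.243. Rpl15 and Eef1g have near-identical copies in the genome, which makes their counts uncertain.

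Within 1 Mb of Nanog, 48 other genes are annotated, of which 9 were tested and 0 passed by edgeR or limma-trend (3 and 2 at an unadjusted p under 0.05). Gdf3 is a TGF-beta family ligand gene near Nanog in the pluripotency cluster. It ranged from 34.1 to 586 CPM in Nanog-high cells (median 230.1) and from 0 to 286 CPM in Nanog-low cells (median 42.4). It had a count in 14 of 14 Nanog-high and 9 of 14 Nanog-low cells, with adjusted p of 0.652 in edgeR and 0.218 in limma-trend. Dppa3, the Stella gene, was counted in 4 Nanog-high and 2 Nanog-low cells, with highest values of 502 and 3.04 CPM (adjusted p = 0.133, edgeR). Slc2a3, a glucose transporter gene, had medians of 916 CPM in Nanog-high and 809 CPM in Nanog-low cells. Phc1, a Polycomb gene, had medians of 259.8 CPM in Nanog-high and 117 CPM in Nanog-low cells, whereas M6pr had medians of 69.1 CPM in Nanog-high and 105 CPM in Nanog-low cells and Necap1 was counted in 8 and 13 cells. Rimklb and the predicted genes Gm8430 and Gm10224 had medians of 16.4, 4.70 and 1.57 CPM in Nanog-high and 12.8, 3.25 and 1.40 CPM in Nanog-low cells.

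The DNA methylation machinery, of which 17 of 18 genes were tested, gave 0 calls by edgeR or limma-trend (1 and 4 at an unadjusted p under 0.05). Dnmt3b, the de novo methyltransferase gene with the higher counts, had medians of 327 CPM in Nanog-high and 348 CPM in Nanog-low cells. Dnmt3a had medians of 31.1 and 0.615 CPM in Nanog-high and Nanog-low cells and counts in 11 and 8 cells (adjusted p = 1.00, edgeR), and Dnmt3l, the regulatory partner, counts in 9 and 4. Dnmt1, the maintenance enzyme, had medians of 86.5 CPM in Nanog-high and 139 CPM in Nanog-low cells. The Nodal pathway (13 tested), FGF and ERK (16), LIF and STAT3 (9), BMP and SMAD (7), Wnt (6), Polycomb repressive complex 2 (9), glycolysis (14) and p53 (12) also gave 0 calls by either tool. Unadjusted, at most 2 members of each of these 7 lists other than glycolysis were under 0.05, and 1 by edgeR and 3 by limma-trend in glycolysis. Lefty1, a Nodal inhibitor gene, was counted in 11 Nanog-high and 7 Nanog-low cells (adjusted p = 0.640, edgeR).

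Markers of other cell types were sparse and none passed in edgeR or limma-trend, with at most 1 per list at an unadjusted p under 0.05. Of 13 mesendoderm genes 7 were tested, and their sum ranged from 0 to 1059 CPM in Nanog-high cells (median 40.4) and from 0.396 to 1302 CPM in Nanog-low cells (median 125). T, the brachyury gene, was counted in 7 and 8 cells and Mixl1 in 3 and 5. Primitive endoderm, trophectoderm and neurectoderm lists had 5, 4 and 4 tested members, with medians of the sum of 510, 8.29 and 43.5 CPM in Nanog-high cells and 843, 75.7 and 138 CPM in Nanog-low cells. The endoderm factor Sox17 had no count in any of the 28 cells, Gata6 had one in 0 Nanog-high and 1 Nanog-low cell, and Sox1 in none. The fibroblast list, of which 3 of 13 were tested, summed to 3.10 to 937 CPM in Nanog-high cells (median 187) and 102 to 5716 CPM in Nanog-low cells (median 702), mostly from Tagln, Vim and Fn1. Col3a1, Lum and Postn were at 0 in all 28 cells, and the other 10 members had a count in at least 1 cell. Among these, Col1a1 was counted in 0 Nanog-high and 5 Nanog-low cells, Col1a2 in 2 and 2, with highest values of 9.94 and 213 CPM, and Acta2 in 1 and 3, with highest values of 138 and 491 CPM. The 2-cell-like list had 0 genes with enough counts to test. The part of these marker levels in the keratin and Podxl values was not tested.

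Cell cycle genes gave no calls. All 19 S phase and 22 G2 and M phase genes listed were tested and 0 passed by edgeR or limma-trend (1 and 4 of the S phase and 0 and 1 of the G2 and M phase genes at an unadjusted p under 0.05). S phase genes summed to a mean of 4951 ± 1998 CPM in Nanog-high and 4134 ± 1407 CPM in Nanog-low cells (SD, n = 14 each), and G2 and M phase genes to 4533 ± 3273 and 4703 ± 2498 CPM. Mitochondrially encoded genes (11 tested) also gave 0 calls, and 0 at an unadjusted p under 0.05 by either tool.

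The 33 cells between the groups gave values of other genes that the choice of the ends did not use. Their Nanog levels were part of the ranking and are the scale of the slope. There each gene's slope on log2(Nanog CPM + 1) was fitted with edgeR, and 10 of 10867 genes passed (0.092%), 0 of which were among the 48. The sign of the slope matched the sign of the difference for 25 of the 48 genes (52.1%), beside 50% over all tested genes, and for 3 of the 5 limma-trend genes. By direction, 17 of the 28 higher genes had slopes above 0 and 8 of the 20 lower genes had slopes below 0. Podxl had a slope of 1.31 ± 0.42 SE log2 units per log2 unit of Nanog (unadjusted p = 0.0040, adjusted p = 0.434, edgeR). Its sign was opposite to that of its difference between the ends. Podxl was not the only limma-trend gene with opposite signs, since 3 of the 5 matched. Esrrb had a slope of 1.88 (unadjusted p = 0.0051, adjusted p = 0.497) and Fbxo15 of 1.20 (unadjusted p = 0.174), both in the direction of the ends, and Krt8 had -0.61 and Gcnt1 -0.52. Of the 11 naive genes tested, 9 had slopes above 0, with a median of 0.53 beside 0.01 over all genes. Of the 16 general pluripotency genes tested, 7 had slopes above 0, with a median of -0.02. Over all tested genes 5662 of 10867 slopes were above 0.

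**Figure D5:**
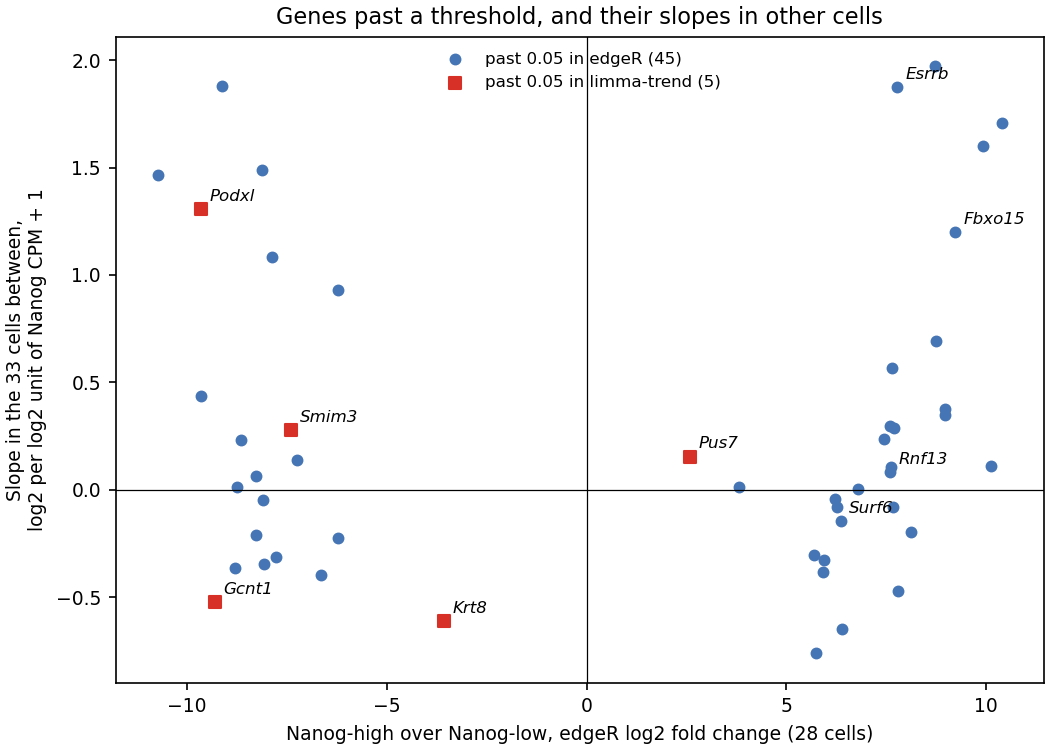
For each of the 50 genes called by edgeR or limma-trend, the edgeR log2 fold change of Nanog-high over Nanog-low cells (horizontal axis, 28 cells) and the slope on log2(Nanog CPM + 1) in the 33 cells between (vertical axis). Squares are the 5 limma-trend genes and circles the 45 called by edgeR alone. Esrrb and Fbxo15 lie in the upper right, Gcnt1 and Krt8 in the lower left, and Podxl in the upper left, where the signs differ.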

How the data were processed

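Messenger RNA was measured in single E14 cells by G&T-seq with Nextera XT libraries, per the labels' protocols. The authors deposited raw counts per gene, whole numbers for 36205 mouse gene identifiers and 95 spike-in rows, made with GSNAP, SAMtools 0.1.18, bedtools 2.19.1 and DESeq2 on GRCm38, per the submitters' processing notes. How reads were assigned to genes, and whether strand was used, is not given in the sources used here. No molecular identifiers are named, so counts are reads, not independent molecules. The deposited normalized table was not used. Coordinates and symbols came from GENCODE M21, and symbols missing there came from a second list of gene names. In all, 34880 identifiers had a symbol. The promoter came from RefSeq.

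CPM used the sum over mouse genes. Nanog was left out of the tested genes, and genes needed at least 10 counts in at least 10 of 61 cells, which left 10867. The main test was edgeR 4.0.16 (quasi-likelihood, TMM, share of genes detected as covariate, Benjamini-Hochberg over all tested genes). An edgeR SE is the absolute log2 fold change divided by the square root of F. Limma 3.58.1 (limma-trend) and DESeq2 1.42.0 were alternatives, in R 4.3.3. Cell properties were compared by two-sided permutation tests with 100000 resamples. Fits were tested on simulated data.

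The members, lists and tests were chosen with earlier results of these data known. Named genes are, in each direction, the 6 with the smallest edgeR p among those with a count in at least 14 of the 28 cells, called list members, a set of pluripotency, methylation and lineage genes, and the tested neighbours of Nanog. Podxl, Gcnt1 and Pus7, and the further list members given, were chosen after their values were seen.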

Additional observations from a re-analysis of the deposited data

How the results depend on the processing

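The count of 48 genes was 51 with DESeq2 size factors, 54 with cell cycle covariates and 52 with cells thinned to one total. It was 43 with 20 cells per end, 34 in a fit of all 61 cells and 32 without the detection covariate. It was 2642 with no filter on low counts, 4 with a stricter filter (20 cells), 20 with rows A to D against E to H of the plate as a covariate, 179 by DESeq2's Wald test, 5 by limma-trend, 1 with 10 cells per end, and 10 for the slope in the 33 cells between. Chosen after seeing the data, it was 2 without the 4 cells low in chromosome 14 counts, 11 without the cells with the lowest and highest mitochondrial share, and 0 (232 at an unadjusted p under 0.05) for genes counted in at least 14 of 28 cells. Similar counts did not mean the same genes. Of the 48, 42 were kept with thinned cells, 26 with cell cycle covariates and 18 in the fit of all 61 cells. The plate covariate kept 15, 20 cells per end kept 13 and 10 per end kept 0. Leaving out 1 cell at a time gave 19 to 55 calls, with 23, 19, 27, 28 and 22 without the Nanog-high cells in wells C05, B09, C02, D05 and B05 and 24 and 21 without the Nanog-low cells in G05 and A02. Limma-trend's 5 calls became 1 without the cells of extreme mitochondrial share and 0 to 9 with 1 cell left out (0 without the Nanog-high cell in F09, 1 without C02, B06, D05 or H02 of the Nanog-high or G05 or G03 of the Nanog-low cells, 3 without D10 or A02 of the Nanog-low cells, and 9 without G02 of the Nanog-high cells). The cause of these changes was not tested. Genes detected differed by -431.8 with 10 cells per end (permutation p = 0.280), and the mitochondrial share by 0.522 percentage points with 20 per end (permutation p = 0.0315). Podxl, Gcnt1, Smim3, Esrrb, Fbxo15, Surf6, Rnf13, Krt8 and Pus7 kept their sign in each alternative run on the ends. The 10 lowest cells are a choice by well name among 14 cells at 0. The share of higher calls moved with the covariate: 28 of 48 with it and 9 of 32 without, and it moved the median log2 fold change of all genes to 0.10 with it, against -0.04 without. No paired analysis was possible because replicate numbers only name wells in accession order. Low counts limit most calls: 26 of the 48 genes were counted in at most 7 of 28 cells.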

Other observations

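In the 33 cells between the ends, the G2 and M phase genes shared a sign. All 22 had a slope on log2(Nanog CPM + 1) below 0, with a median of -0.17, while 5662 of 10867 tested genes had slopes above 0. These genes vary together within a cell, so their 22 slopes are not independent. They did not share a sign between the ends, where 11 of 22 edgeR log2 fold changes were above 0, with a median of -0.014. In mean log2(CPM + 1), 17 of 22 differences were below 0, beside 6120 of 10867 over all tested genes. S phase genes had 12 of 19 slopes above 0.

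Among the genes that passed the slope test in these 33 cells, Lrrc8b, Plekhg1, Lrrc1, Sertad4, Pgap3, Pigw and Kifc3 had slopes of 2.03, 1.90, 1.89, 1.86, 1.81, 1.77 and 1.39, and Nedd9 and Galnt10 had slopes of -1.996 and -1.55 (adjusted p under 0.05, edgeR). On simulated counts of the ends, edgeR called 53 of 10667 unchanged genes. The slope fit was run neither on simulated counts nor with limma-trend. Porcn and Tenm4, each counted in 9 Nanog-high cells and 1 Nanog-low cell and called by edgeR between the ends, had slopes of 1.71 and 1.97 in the same direction (unadjusted p = 0.0062 and 0.0016, adjusted p = 0.539 and 0.266, edgeR). Fam174a and Prn, counted in 1 and 0 Nanog-high cells and in 10 and 8 Nanog-low cells, had slopes of 1.88 and 1.46, opposite to their difference between the ends. These genes were chosen after their values were seen.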
